A study of Mus musculus with 14 samples.

Results

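The genes of mitosis and chromosome segregation, the machinery that condenses, aligns and parts the chromosomes and then splits the cell, were followed in ventricular heart tissue after pressure overload. The set holds 45 genes of the 54532 in the count table, taken by gene symbol. The members and the further lists were chosen with earlier results of these data known, so the counts of those that passed are descriptive. All 45 were found and all 45 passed the filter on low counts, so no member was left out. Polyadenylated RNA was sequenced in 14 libraries of mouse ventricle, 1 week after transverse aortic constriction (TAC), in which the aorta is narrowed to load the left ventricle with pressure, or after a sham operation. The groups were wild type sham (2 libraries), wild type TAC (6 libraries), and sham (2 libraries) and TAC (4 libraries) in mice labelled CCL24 KO, which lack the gene of the chemokine Ccl24. All groups had surgery and the same interval of 1 week. The labels give no strain, age or sex, and do not say how or in which cells the gene was disrupted. The number of libraries in a group equals the number of animals in the design text. Where libraries of a group were not separate animals, p-values would measure only the spread between these samples.

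Entry into mitosis is driven by the kinase Cdk1 with B-type and A-type cyclins, which switches on other kinases, condenses the chromosomes and builds the spindle. A checkpoint at the kinetochores holds the cell until every chromosome is attached. The anaphase-promoting complex, a ubiquitin ligase, then destroys cyclin B and the inhibitor of cohesin cleavage, the sister chromatids part and cytokinesis divides the cell. Most of these genes are transcribed mainly in late S, G2 and M phase, and their promoters often carry a CHR element, which is read by the MuvB complexes, and CCAAT boxes, which are read by NF-Y. Adult cardiomyocytes rarely divide, while fibroblasts, endothelial cells and leukocytes of the heart can proliferate after injury. In bulk tissue, fewer cells of a type and less RNA per cell cannot be told apart.

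Total counts ran from 17072262 to 33123052 per library, and 3 counts stood for 0.0899 to 0.172 CPM (the usual depth-scaled count, with TMM factors, and the unit of every level below unless another is named). Mitochondrially encoded genes took 10.1% to 23.7% of the counts. Ccl24 held 3 to 8 counts in the knockout libraries and 56 to 105 in the wild type libraries, except that the library labelled replicate 1 of wild type TAC held 3, unlike the label it carries. Its labelled group was left as it is. Counts of members called for TAC in wild type and for genotype after TAC are given with and without this library. Other results include it unless stated. Heart tissue was checked by marker genes. The 10 cardiomyocyte markers summed to 50700 to 71900 CPM per library, and none of the cardiomyocyte, fibroblast, endothelial or macrophage markers was at 0 in any library.

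The promoters are shown first because nearly all members moved together, and because the motifs they hold can be set beside those of DNA replication genes, which act in an earlier phase of the cycle. The sequences are from RefSeq on GRCm38.p6. In its table of 32851 windows, each from 250 bases before a transcript start to 50 after it, 38 of the 45 members matched, with 42 windows. Not matched were Esco2, Kif20a, Dlgap5, Aurkb, Tpx2, Ska1 and Ccna2. Below are the 120 bases before the start of 8 members, chosen to cover 5 of the 8 roles described later, 5′ to 3′ on the strand of the gene. Capitals mark TTTGAA and TTCGAA, letters of the CHR element, and CCAAT, on either strand, so TTCAAA and ATTGG mark the same motifs on the other strand.
Cdk1: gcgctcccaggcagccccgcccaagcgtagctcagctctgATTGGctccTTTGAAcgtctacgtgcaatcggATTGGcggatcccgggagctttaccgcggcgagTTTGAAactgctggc
Ccnb1: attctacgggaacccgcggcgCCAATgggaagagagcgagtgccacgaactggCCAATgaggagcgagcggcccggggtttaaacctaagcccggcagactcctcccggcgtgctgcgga
Kif11: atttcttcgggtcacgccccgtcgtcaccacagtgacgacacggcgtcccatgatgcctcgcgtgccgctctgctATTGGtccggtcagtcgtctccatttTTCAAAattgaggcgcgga
Prc1: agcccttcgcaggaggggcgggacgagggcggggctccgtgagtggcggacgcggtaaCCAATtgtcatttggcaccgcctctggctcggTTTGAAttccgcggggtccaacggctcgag
Top2a: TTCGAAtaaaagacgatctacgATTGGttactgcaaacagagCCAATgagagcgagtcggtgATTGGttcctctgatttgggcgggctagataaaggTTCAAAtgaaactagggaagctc
Ncapg: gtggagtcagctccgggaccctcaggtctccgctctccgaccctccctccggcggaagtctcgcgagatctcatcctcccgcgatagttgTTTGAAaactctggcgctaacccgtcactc
Cdc20: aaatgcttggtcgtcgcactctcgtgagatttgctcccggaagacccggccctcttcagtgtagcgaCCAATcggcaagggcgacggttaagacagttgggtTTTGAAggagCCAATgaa
Ube2c: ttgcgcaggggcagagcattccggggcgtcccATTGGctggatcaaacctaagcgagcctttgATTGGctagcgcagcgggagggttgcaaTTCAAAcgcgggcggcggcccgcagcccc

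These stretches lie on GRCm38 at chr10:69352913-69353032 on the minus strand (Cdk1), chr13:100786487-100786606 on the minus strand (Ccnb1), chr19:37376262-37376381 on the plus strand (Kif11) and chr7:80294356-80294475 on the plus strand (Prc1, the downstream of its starts in the table). The others lie at chr11:99024190-99024309 on the minus strand (Top2a), chr5:45669805-45669924 on the plus strand (Ncapg), chr4:118437344-118437463 on the minus strand (Cdc20) and chr2:164769809-164769928 on the plus strand (Ube2c). In 7 of these 8 stretches a CHR-type hexamer begins 15 to 30 bases before the start. The stretches were picked by hand, so this does not show how common that place is. Over all member promoters, 35.7% held a hexamer in the 200 bases before the start. The stretch of Ccnb1 holds no such hexamer and a pair of CCAAT boxes. The stretch of Ncapg holds a hexamer and no CCAAT.

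Over the whole windows, TTTGAA or TTCGAA stood in 73.8% of the member promoters (31 of 42), against 19.2% of all promoters in the table and 17.6% of those of protein-coding genes. CCAAT stood in 76.2% of the member promoters and in 37.4% of all. Both stood in 61.9% of the member promoters and in 7.52% of all. Of the 42 hexamer matches in member promoters, 31 began within 50 bases of the start. A site shared by the windows of 1 gene, as in Ect2 and Prc1, enters this count more than once. The windows end 50 bases after the start, and the place of matches in all promoters was not counted. The E2F-type heptamers GCGGGAA and GCGCGAA each stood in 4.76% of the member promoters, against 4.6% and 1.59% of all promoters. In 53 promoters of DNA replication genes the hexamers stood in 18.9%, GCGGGAA in 35.8% and GCGCGAA in 18.9%. A further 75 promoters of mitosis genes outside the set held the hexamers in 62.7%, GCGGGAA in 16% and GCGCGAA in 0.0%. For the shares, both strands were searched and promoters were counted, not matches, since a CCAAT on one strand can overlap one on the other. With only the 200 bases before the start, the hexamers stood in 35.7% of the member promoters and 13.4% of all, and CCAAT in 69.0% and 29.3%. A match is a description of the letters and not a measured binding site.

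**Figure D1:**
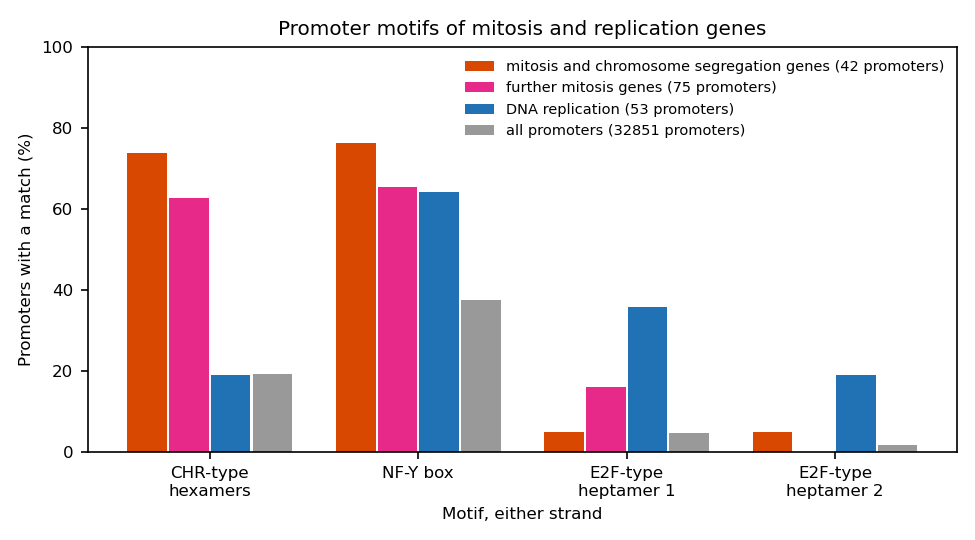
Share of promoters (vertical axis, %) that hold a motif on either strand, for the CHR-type hexamers TTTGAA or TTCGAA, the NF-Y box CCAAT and the E2F-type heptamers GCGGGAA (1) and GCGCGAA (2); bars are the gene sets in the legend. The hexamers stood in 73.8% of the member promoters and 18.9% of the DNA replication promoters, and the first heptamer in 4.76% and 35.8%.

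The summed level of the members was low in sham hearts and higher after TAC in both genotypes. The mean of a member in wild type sham had a median of 0.85 CPM, with 24 of 45 under 1 CPM. In knockout TAC the median was 5.21 CPM and 0 of 45 were under 1 CPM. Summed over the members, the level was 53.63 and 58.95 CPM in the wild type sham libraries and 67.1 and 73.85 CPM in the knockout sham libraries. After TAC the sum was 110.5 to 228.4 CPM in wild type, with a median of 173.3, and 272.5, 435.0, 219.1 and 335.3 CPM in the knockout. Every TAC library lay above every sham library. The lowest knockout TAC library, replicate 4, was level with wild type TAC replicate 6, at 219.1 CPM, and below the library labelled replicate 1 of wild type TAC, at 228.4 CPM.

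**Figure D2:**
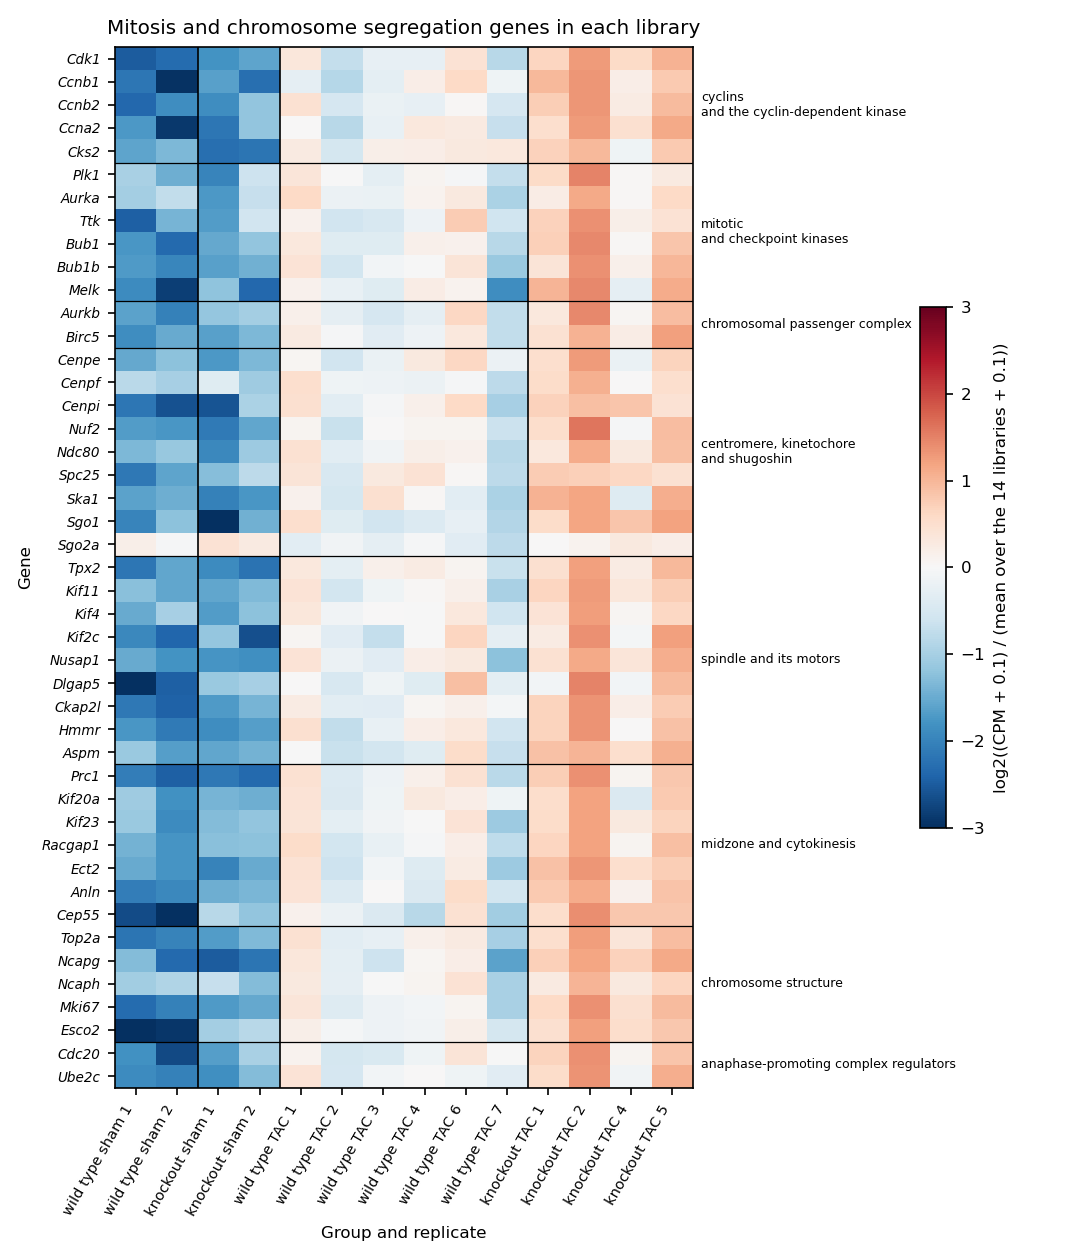
Each row is a member, grouped by role, and each column a library; colour is the log2 ratio of its CPM to its mean over the 14 libraries, with 0.1 added to both, limited to 3 in either direction. Rows turn from blue in the sham libraries to red in the knockout TAC libraries, except the row of Sgo2a, and knockout TAC replicate 2 was the highest library at 40 of 45 members.

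In wild type hearts, 38 of the 45 members rose after TAC and 0 fell (edgeR quasi-likelihood test, adjusted p under 0.05 by Benjamini-Hochberg over 15876 genes), where 6.36% of all genes tested rose and 5.8% fell. Their log2 fold changes ran from 1.19 to 4.25. The median over all 45 was 1.83, against 0.01 over all genes tested. Without the library labelled replicate 1 of wild type TAC the count was 37, Ndc80 being lost, where 9.25% of all genes rose and 8.1% fell. In the knockout, 42 members rose and 0 fell, where 2.36% of all genes tested rose and 1.73% fell. The fitted log2 fold changes of those called ran from 1.28 to 3.69, and the median over all 45 was 2.36, against -0.01 over all genes tested. A total of 36 members rose in both genotypes, 2 (Ttk and Dlgap5) passed only in wild type, 6 (Plk1, Aurka, Cenpf, Ska1, Sgo1 and Ncaph) only in the knockout, and Sgo2a in neither. The effect of genotype on these changes is tested further on. At 41 of 45 members all 6 wild type TAC libraries lay above both sham libraries, where 16.3% of all genes did so, the exceptions being Aurka, Ncapg, Ncaph and Sgo2a. In the knockout 44 of 45 did so, all but Sgo2a, where 17.0% of all genes did.

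Both sham groups hold 2 libraries, and most of these calls need both. Without wild type sham replicate 1, or without replicate 2, 0 members passed in wild type, where 0 of all genes rose either, and in the knockout 0 passed without knockout sham replicate 1 and 22 without replicate 2, where 1 and 91 of all genes rose, although no member's fold change turned its direction in any of these fits. By limma voom 16 members passed in wild type and 29 in the knockout, among 702 and 244 genes higher over the whole table, and by DESeq2 42 and 44, among 1502 and 796.

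After TAC, knockout hearts had the higher mean level at all 45 members. Of these, 24 passed the test, all of them higher in the knockout, where 3.71% of all genes tested were higher and 5.63% lower. The log2 differences of those called ran from 0.45 to 1.34, that is 1.37-fold to 2.54-fold. The median over all 45 was 0.89, against -0.01 over all genes tested. Without the library labelled replicate 1 of wild type TAC the count was 34, where 8.5% of all genes were higher. These 34 held all of the 24, and Aurkb, Bub1b, Cenpf, Hmmr, Kif23, Kif4, Melk, Ndc80, Prc1 and Ska1 were gained, with a median difference of 0.98. The knockout and wild type TAC ranges did not overlap at 10 members (Ccna2, Cdk1, Cep55, Ect2, Esco2, Mki67, Ncapg, Sgo1, Sgo2a and Spc25), where 2.44% of all genes had every knockout TAC library on top. Without the library labelled replicate 1 of wild type TAC this was so at 18 members, where 6.81% of all genes did so.

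The count of 24 rests on single libraries more than the direction does. It was 2 (Aspm and Mki67) without knockout TAC replicate 2, where 1.42% of all genes were higher, and 1 (Aspm) without knockout TAC replicate 5, where 0.498% were. It was 7 when wild type TAC replicate 3 was left out and 13 when replicate 4 was, where 1.48% and 1.46% of all genes were higher. All 45 differences stayed positive in these fits, with medians of 0.66, 0.85, 0.84 and 0.9. The calls of Nusap1, Racgap1, Anln and Top2a, stated below, were each kept in only 3 of the 14 fits without a library.

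**Figure D3:**
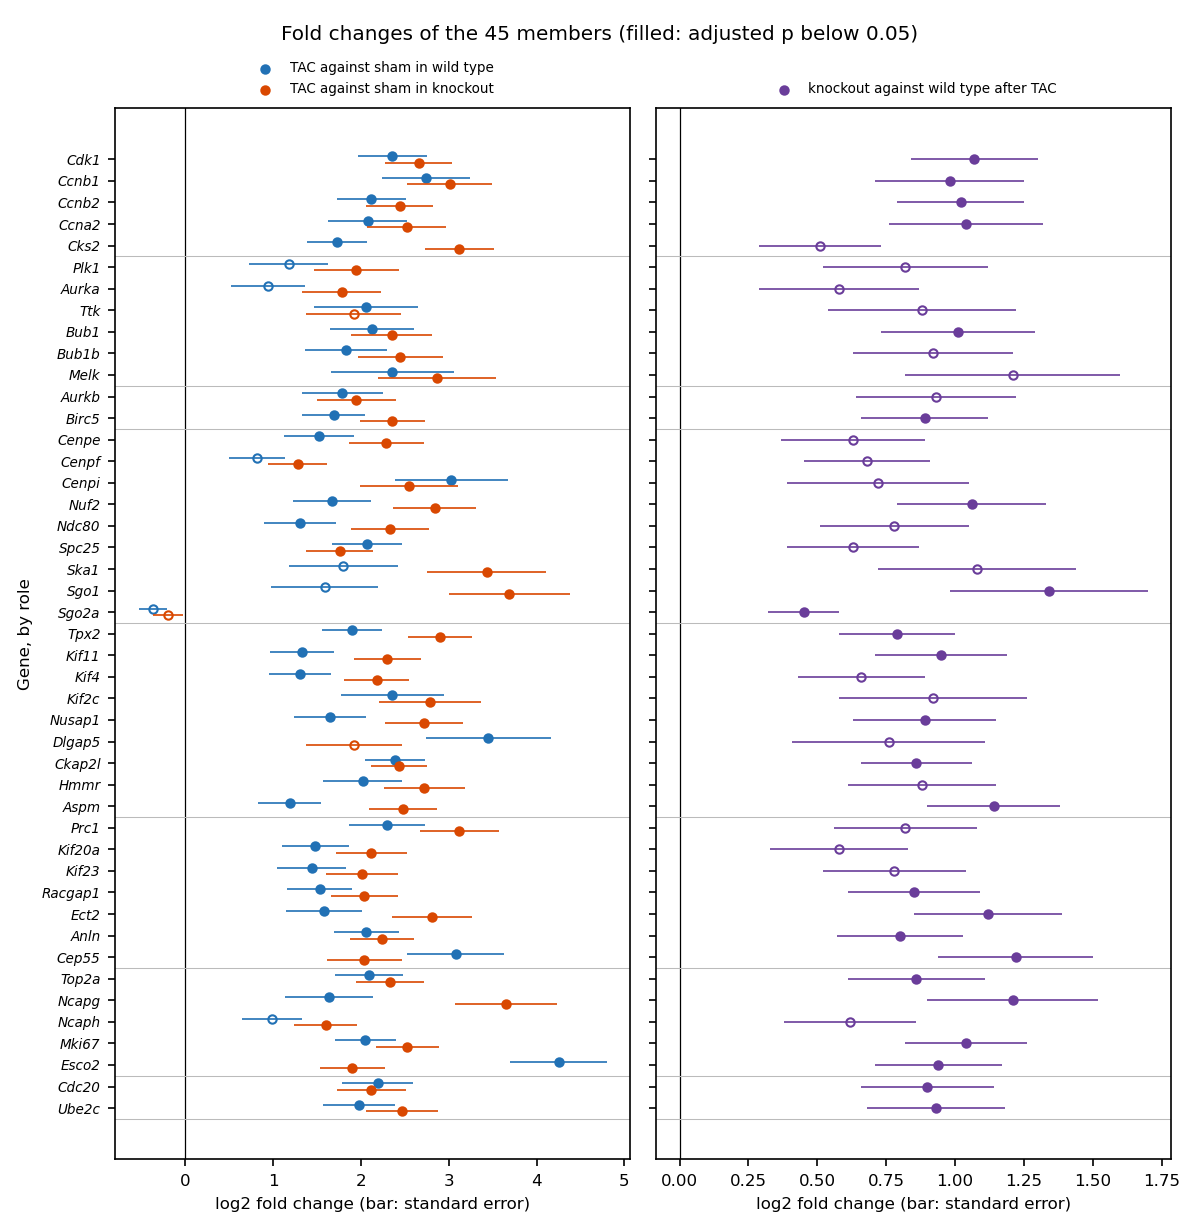
Log2 fold change of each member (horizontal axis, bars are the standard error) for TAC against sham in each genotype (left) and for knockout against wild type after TAC (right), ordered by role; filled points passed the test. All points but those of Sgo2a lie right of 0 on the left, and all 45 lie right of 0 on the right.

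All 5 genes of the cyclins and their kinase rose in both genotypes, with median log2 fold changes of 2.12 in wild type and 2.66 in the knockout. Cdk1, the kinase that drives entry into mitosis, lies on chromosome 10 at 69335146 to 69352938 of GRCm38. Its level was 0.981 and 1.12 CPM in wild type sham, and 1.64 and 1.91 CPM in knockout sham. In TAC hearts it was 3.3 to 8.08 CPM in wild type, with a median of 5.02, and 9.34, 14.5, 8.97 and 12.4 CPM in the knockout. No sham library reached a TAC library, and no wild type TAC library reached a knockout TAC library. The rise was 5.13-fold in wild type (log2 2.36, SE 0.39, adjusted p = 0.0064) and 6.34-fold in the knockout (log2 2.66, SE 0.38, adjusted p = 0.003). Between the genotypes after TAC, Cdk1 was 2.1-fold higher in the knockout (log2 1.07, SE 0.23, adjusted p = 0.014), and the log2 difference was 1.19 (adjusted p = 0.0032) without the library labelled replicate 1 of wild type TAC.

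Ccnb1, the cyclin B whose destruction ends mitosis, stood at 0.427 and 0.203 CPM in wild type sham and 0.668 and 0.392 CPM in knockout sham. In TAC hearts it was 1.21 to 3.5 CPM in wild type, with a median of 1.96, and 4.58, 5.88, 2.61 and 4.02 CPM in the knockout. The knockout TAC libraries overlapped the wild type ones at replicate 4 alone. Its log2 fold change after TAC was 2.74 (SE 0.5, adjusted p = 0.0082) in wild type and 3.01 (SE 0.48, adjusted p = 0.0044) in the knockout, and 0.98 (SE 0.27, adjusted p = 0.038) between the genotypes after TAC. Ccnb2, the other B-type cyclin, and Ccna2, the A-type cyclin of S phase and early mitosis, had log2 differences between the genotypes after TAC of 1.02 (adjusted p = 0.016) and 1.04 (adjusted p = 0.038). Cks2, a small docking subunit of Cdk1 complexes, was the member of this role that did not pass between the genotypes after TAC (log2 0.51, SE 0.22, adjusted p = 0.14). Cks2 stood at 0.725 and 0.863 CPM in wild type sham and at 0.411 and 0.441 CPM in knockout sham, so its log2 rise of 3.12 in the knockout (SE 0.39, adjusted p = 0.0022), against 1.73 in wild type (SE 0.34, adjusted p = 0.011), started from a lower sham level.

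**Figure D4:**
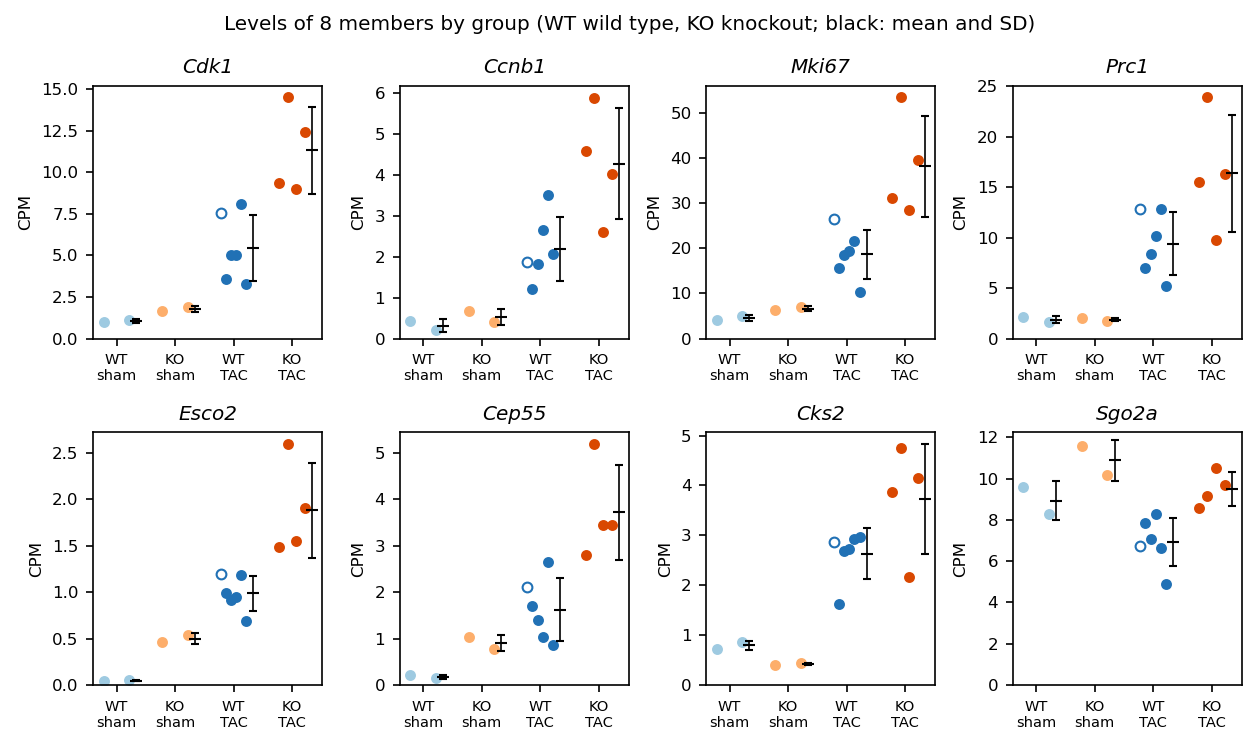
CPM (vertical axes, from 0) of 8 members in the 14 libraries; points are libraries, the open point is the library labelled replicate 1 of wild type TAC, and black marks are the mean and SD of a group. Cdk1, Mki67, Esco2 and Cep55 had every knockout TAC library above every wild type TAC library, Ccnb1, Prc1 and Cks2 did not, and Sgo2a was no higher after TAC than after sham.

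Among the mitotic and checkpoint kinases, 4 of 6 rose in wild type and 5 of 6 in the knockout, with medians of 1.95 and 2.15. Bub1, a kinase of the spindle checkpoint, stood at 0.427 and 0.254 CPM in wild type sham and 0.514 and 0.686 CPM in knockout sham. Under TAC it was 0.899 to 2.1 CPM in wild type, with a median of 1.56, and 2.79, 4.72, 1.72 and 3.05 CPM in the knockout. Only knockout TAC replicate 4 lay inside the wild type TAC range. It was the kinase that passed between the genotypes after TAC (log2 1.01, SE 0.28, adjusted p = 0.036). Its partner Bub1b had a difference of 0.92 (SE 0.29, adjusted p = 0.056), and of Melk, a kinase of proliferating cells, the difference was 1.21 (SE 0.39, adjusted p = 0.06). Plk1, the polo kinase of centrosome maturation and mitotic entry, did not pass in wild type. Its level was 1.24 and 0.863 CPM in wild type sham, 0.565 and 1.62 CPM in knockout sham, and 1.5 to 3.29 CPM in wild type TAC with a median of 2.48. In knockout TAC it was 3.82, 7.28, 2.61 and 3.1 CPM, so replicate 2 stood well apart. The log2 fold change of Plk1 after TAC was 1.18 in wild type (SE 0.45, adjusted p = 0.096) and 1.95 in the knockout (SE 0.48, adjusted p = 0.033). Aurka, the kinase of spindle poles, gave 0.94 (adjusted p = 0.14) and 1.78 (adjusted p = 0.039). Ttk, the kinase that starts the checkpoint signal at kinetochores, gave 2.06 (adjusted p = 0.036) and 1.92 (adjusted p = 0.057). 

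The chromosomal passenger complex corrects faulty attachments and acts again at the midzone. Aurkb, its kinase, had log2 fold changes after TAC of 1.79 in wild type (SE 0.46, adjusted p = 0.024) and 1.95 in the knockout (SE 0.45, adjusted p = 0.025). Birc5, which carries the name survivin and anchors the complex, gave 1.69 (SE 0.36, adjusted p = 0.013) and 2.36 (SE 0.37, adjusted p = 0.0042). Between the genotypes after TAC, Birc5 passed (log2 0.89, SE 0.23, adjusted p = 0.027), and Aurkb did not (log2 0.93, SE 0.29, adjusted p = 0.053), although it did without the library labelled replicate 1 of wild type TAC.

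The 9 genes of the centromere, kinetochore and cohesin guard were the most mixed role. In wild type 5 of 9 rose and in the knockout 8 of 9, with medians of 1.59 and 2.33. Ndc80, the microtubule-binding subunit of the outer kinetochore, stood at 0.597 and 0.71 CPM in wild type sham and 0.36 and 0.735 CPM in knockout sham. The TAC level was 0.899 to 2.33 CPM in wild type, with a median of 1.69, and 2.11, 3.71, 2.08 and 3.22 CPM in the knockout. The library labelled replicate 1 of wild type TAC was the highest of its group and the only one of it inside the knockout TAC range. The fitted log2 fold change of Ndc80 was 1.31 in wild type (adjusted p = 0.048) and 2.33 in the knockout (adjusted p = 0.0098). The difference between the genotypes after TAC was 0.78 (adjusted p = 0.072), or 0.9 (adjusted p = 0.03) when that library was left out. Nuf2, its partner subunit, passed between the genotypes after TAC at 1.06 (adjusted p = 0.029), while Spc25 of the same complex gave 0.63 (adjusted p = 0.098). Cenpf, a large protein of the kinetochore surface, had the smallest log2 fold changes of the kinetochore genes, at 0.82 (adjusted p = 0.1) in wild type and 1.28 (adjusted p = 0.046) in the knockout. Cenpe, a kinetochore motor, gave 1.52 (adjusted p = 0.027) and 2.29 (adjusted p = 0.0098), and Cenpi, an inner kinetochore subunit, gave 3.03 (adjusted p = 0.013) and 2.55 (adjusted p = 0.021). Ska1, which holds kinetochores to shrinking microtubules, was counted at 0.33 to 1.06 CPM in wild type TAC and at 1.62, 1.78, 0.53 and 1.67 CPM in knockout TAC. Per kb of exon, the lowest mean after TAC was that of Esco2, at 0.148 CPM per kb in wild type and 0.283 in the knockout, and the highest in the knockout was that of Cks2, at 5.39.

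The shugoshins, which protect centromeric cohesin from removal before anaphase, differed in level and in what passed. Sgo1 was at 0.171 and 0.355 CPM in wild type sham, and at 0 and 0.294 CPM in knockout sham. After TAC it was 0.479 to 1.43 CPM in wild type, with a median of 0.724, and 1.48, 2.34, 1.81 and 2.36 CPM in the knockout. Every knockout TAC library lay above every wild type TAC library, of which the highest was the library labelled replicate 1 of wild type TAC. The log2 fold change after TAC was 1.59 in wild type (SE 0.61, adjusted p = 0.096) and 3.69 in the knockout (SE 0.69, adjusted p = 0.009). The 6 counts of both knockout sham libraries together give a ratio of TAC to sham of 13.3, with an exact 95% interval of 6.0 to 36.8 for counting error only. Between the genotypes after TAC, Sgo1 had the largest difference of the members, 2.54-fold (log2 1.34, SE 0.36, adjusted p = 0.032), and 1.58 on the log2 scale (adjusted p = 0.0069) without that library.

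Sgo2a was the member that did not rise. It stood at 9.6 and 8.27 CPM in wild type sham and 11.6 and 10.2 CPM in knockout sham. In wild type TAC it was 4.91 to 8.27 CPM with a median of 6.92, and in knockout TAC 8.58, 9.16, 10.5 and 9.71 CPM. Its log2 fold change after TAC was -0.37 in wild type (SE 0.16, adjusted p = 0.14) and -0.2 in the knockout (SE 0.17, adjusted p = 0.54). Per kb of exon it had the highest mean level of the members in sham hearts, 1.27 CPM per kb in wild type and 1.56 in the knockout, and took 10.9% and 11% of the members' summed level in wild type and knockout sham, against 2.68% and 2.14% after TAC. In TAC hearts it was still 1.37-fold higher in the knockout (log2 0.45, SE 0.13, adjusted p = 0.041), a call kept in 5 of the 14 fits without a library. It lies on chromosome 1 at 57995971 to 58025899, and 35.0% of its exon bases are shared with Kctd18 on the opposite strand. Whether the counting used strand is not given in the sources used here, so reads of that gene and of Sgo2a cannot be told apart. Its promoters are shown as those of the member that passed in neither genotype, and neither holds a CHR-type hexamer. The letters are missing in 9 other matched members too (Birc5, Ccnb1, Cenpe, Cenpi, Cks2, Melk, Ncaph, Nuf2 and Nusap1), of which 8 rose in wild type and all 9 in the knockout. The upstream start has 120 bases at chr1:57985220-57985339 and the downstream start at chr1:57995854-57995973, both on the plus strand, and the windows hold a CCAAT at 194 bases before the upstream start and 13 after the downstream one, outside the stretches printed.
Sgo2a, upstream start: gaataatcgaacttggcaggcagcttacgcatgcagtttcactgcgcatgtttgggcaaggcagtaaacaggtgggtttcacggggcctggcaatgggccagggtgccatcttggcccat
Sgo2a, downstream start: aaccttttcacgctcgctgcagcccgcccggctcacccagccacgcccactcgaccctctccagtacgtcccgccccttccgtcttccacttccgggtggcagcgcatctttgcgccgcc

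All 9 spindle and motor genes rose in wild type and 8 of 9 in the knockout, with medians of 1.9 and 2.48. Kif11, the motor that pushes the spindle poles apart, stood at 1.58 and 1.27 CPM in wild type sham and 1.28 and 1.52 CPM in knockout sham. Under TAC it was 1.95 to 5.24 CPM in wild type, with a median of 3.78, and 6.24, 9.72, 5.04 and 6.67 CPM in the knockout. The library labelled replicate 1 of wild type TAC, at 5.24 CPM, was the only wild type TAC library above a knockout one. Its log2 fold change was 1.33 in wild type (adjusted p = 0.028), 2.3 in the knockout (adjusted p = 0.0055) and 0.95 between the genotypes after TAC (adjusted p = 0.025). Tpx2, which recruits Aurora A to the spindle, rose by 1.9 (adjusted p = 0.0077) and 2.9 (adjusted p = 0.0022) on the log2 scale. Aspm, a protein of the spindle poles, had a difference of 1.14 between the genotypes after TAC (SE 0.24, adjusted p = 0.011). It was the member whose call was kept in all 14 fits without a library. Nusap1 and Ckap2l, which bind spindle microtubules, also passed between the genotypes after TAC, at 0.89 (adjusted p = 0.046) and 0.86 (adjusted p = 0.017). Hmmr, Kif4, Kif2c and Dlgap5 did not, with log2 differences of 0.66 to 0.92.

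Dlgap5, a stabiliser of kinetochore fibres, had few counts in sham hearts. It was at 0.0853 and 0.203 CPM in wild type sham, 6 counts in all, and at 0.668 and 0.735 CPM in knockout sham. The TAC level was 1.1 to 3.02 CPM in wild type, with a median of 1.34, and 1.48, 4.58, 1.46 and 3.1 CPM in the knockout. Both knockout sham libraries were above both wild type sham libraries, and the TAC groups overlapped. The fitted log2 fold change after TAC was 3.45 in wild type (SE 0.71, adjusted p = 0.012) and 1.92 in the knockout (SE 0.55, adjusted p = 0.062).

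All 7 genes of the midzone and cytokinesis rose in both genotypes, with medians of 1.58 and 2.12. Prc1, which bundles the antiparallel microtubules of the midzone, stood at 2.13 and 1.62 CPM in wild type sham and 2 and 1.76 CPM in knockout sham. After TAC it was 5.21 to 12.8 CPM in wild type, with a median of 9.31, and 15.5, 23.9, 9.77 and 16.3 CPM in the knockout. Replicate 4 of the knockout lay inside the wild type TAC range and the other 3 above it. The log2 fold change of Prc1 was 2.3 (SE 0.43, adjusted p = 0.011) in wild type and 3.12 (SE 0.45, adjusted p = 0.0042) in the knockout. Its difference between the genotypes after TAC was 0.82 (SE 0.26, adjusted p = 0.063), and 0.92 (adjusted p = 0.031) without the library labelled replicate 1 of wild type TAC. Racgap1 and Kif23, the subunits of centralspindlin, gave 0.85 (adjusted p = 0.042) and 0.78 (adjusted p = 0.066) between the genotypes after TAC. Ect2, the exchange factor that switches on RhoA at the cleavage furrow, gave 1.12 (adjusted p = 0.02), and Anln, a scaffold of the contractile ring, 0.8 (adjusted p = 0.04). Kif20a, a midzone motor, gave 0.58 (adjusted p = 0.15), and 29.3% of its exon bases are shared with Cdc23 on the opposite strand.

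Cep55, which brings the abscission machinery to the midbody, was listed at low levels in sham hearts. It stood at 0.213 and 0.152 CPM in wild type sham and at 1.03 and 0.784 CPM in knockout sham. In TAC hearts it was 0.869 to 2.65 CPM in wild type, with a median of 1.54, and 2.79, 5.18, 3.45 and 3.45 CPM in the knockout. The groups did not overlap within either surgery. Its log2 fold change after TAC was 3.08 in wild type (SE 0.55, adjusted p = 0.0077) and 2.04 in the knockout (SE 0.43, adjusted p = 0.017), and 1.22 between the genotypes after TAC (SE 0.28, adjusted p = 0.016).

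Of the 5 genes of chromosome structure, 4 rose in wild type and all 5 in the knockout, with medians of 2.05 and 2.33. Mki67, the proliferation antigen that coats mitotic chromosomes, stood at 4.05 and 4.97 CPM in wild type sham and 6.27 and 7 CPM in knockout sham. Under TAC it was 10.4 to 26.5 CPM in wild type, with a median of 19, and 31.1, 53.6, 28.6 and 39.7 CPM in the knockout. The 4 groups lay apart, in the order wild type sham, knockout sham, wild type TAC and knockout TAC. The rise was 4.14-fold in wild type (log2 2.05, SE 0.35, adjusted p = 0.0086) and 5.77-fold in the knockout (log2 2.53, SE 0.36, adjusted p = 0.0042). After TAC the knockout was 2.05-fold higher (log2 1.04, SE 0.22, adjusted p = 0.017). Top2a, the topoisomerase that untangles sister chromatids, followed it at 2.9 and 3.3 CPM in wild type sham, 4.16 and 5.34 CPM in knockout sham and 6.74 to 18.8 CPM in wild type TAC, with a median of 13.3. In knockout TAC it was 19.3, 32.5, 17.5 and 26 CPM. The library labelled replicate 1 of wild type TAC, at 18.8 CPM, was the only one of its group to reach a knockout TAC library. The log2 difference of Top2a between the genotypes after TAC was 0.86 (SE 0.25, adjusted p = 0.047).

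Ncapg and Ncaph are both subunits of condensin I, which folds mitotic chromosomes. Ncapg was at 0.725 and 0.304 CPM in wild type sham and at 0.257 and 0.343 CPM in knockout sham. It was 0.569 to 2.48 CPM in wild type TAC, with a median of 1.78, and 3.23, 4.51, 3.18 and 4.37 CPM in knockout TAC. Wild type TAC replicate 7, the lowest of its group, lay below a sham library, and no wild type library reached the knockout TAC range. The fitted log2 fold change of Ncapg was 1.64 in wild type (SE 0.5, adjusted p = 0.045), 3.65 in the knockout (SE 0.58, adjusted p = 0.0044) and 1.21 between the genotypes after TAC (SE 0.31, adjusted p = 0.027). Ncaph had smaller values, at 0.99 (adjusted p = 0.069), 1.6 (adjusted p = 0.023) and 0.62 (adjusted p = 0.098).

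Esco2, the acetyltransferase that locks cohesin onto replicated chromatids, was nearly uncounted in wild type sham hearts. It had 1 count in each wild type sham library (0.0427 and 0.0507 CPM) and 9 and 11 counts in the knockout sham libraries (0.462 and 0.539 CPM). The TAC level was 0.689 to 1.19 CPM in wild type, with a median of 0.971, and 1.48, 2.59, 1.55 and 1.9 CPM in the knockout. The 4 groups did not overlap. With 2 counts in the wild type sham group, the ratio of TAC to sham was 20.7 in wild type, with an exact 95% interval of 5.63 to 173.0 for counting error only, against 3.84 (2.41 to 6.44) in the knockout. Both passed, with fitted log2 values of 4.25 (SE 0.55, adjusted p = 0.0024) and 1.9 (SE 0.37, adjusted p = 0.011). After TAC the knockout was 1.92-fold higher (log2 0.94, SE 0.23, adjusted p = 0.024).

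Both regulators of the anaphase-promoting complex rose in both genotypes and passed between the genotypes after TAC. Cdc20, the subunit that activates the complex once the checkpoint is met, stood at 1.32 and 0.66 CPM in wild type sham and 1.49 and 2.45 CPM in knockout sham. After TAC it was 3.34 to 6.43 CPM in wild type, with a median of 4.63, and 7.82, 12.7, 5.13 and 8.79 CPM in the knockout. Knockout replicate 4 again lay inside the wild type TAC range. The log2 fold change of Cdc20 was 2.19 in wild type (adjusted p = 0.0086), 2.12 in the knockout (adjusted p = 0.0086) and 0.9 between the genotypes after TAC (adjusted p = 0.035). Ube2c, the ubiquitin-conjugating enzyme that works with the complex, gave 1.98 (adjusted p = 0.012), 2.47 (adjusted p = 0.0052) and 0.93 (adjusted p = 0.032). Of its exon bases 22.8% are shared with Tnnc2, a troponin gene, on the opposite strand.

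Shared exon bases touch 12 members in all. Besides those named, Ccna2, Kif4, Ncapg and Prc1 share 11.1% to 15.1% of their exon bases with a protein-coding gene on the opposite strand, and 5 more share 1.4% to 7.1%. These 5 are Plk1, Ckap2l, Nusap1, Cdc20 and Top2a, and only in Top2a is the other gene, a snoRNA, on the same strand.

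Between the sham groups 0 members passed in either direction by edgeR, DESeq2 or limma voom. By edgeR 0.0378% of all genes tested were higher in the knockout and 0.0882% lower. The median log2 difference was 0.29 over the members and 0.01 over all genes, and 29 of 45 were positive. At an unadjusted p under 0.05 there were 3 members, all higher in the knockout. Esco2 had a difference of 3.29 (SE 0.66, adjusted p = 0.067), Cep55 of 2.26 (SE 0.65, adjusted p = 0.24) and Dlgap5 of 2.28 (SE 0.85, adjusted p = 0.32). For Esco2 the ratio of 20 counts to 2 was 10.8, with an exact 95% interval of 2.63 to 95.5 for counting error only. Cep55 passed with only the sham groups in the fit and Esco2 passed without wild type TAC replicate 7, in each case as the only member. Both knockout sham libraries lay above both wild type sham libraries at 17 members and below them at 2. These are 37.8% and 4.44% of the members, where 26.6% and 26.3% of all genes did so.

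The difference between the genotypes in their response to TAC was tested as an interaction. By edgeR 0 members and 0 of all genes passed in either direction, and 5 members (Cks2, Sgo1, Aspm, Ncapg and Esco2) and 647 of all genes had an unadjusted p under 0.05. By DESeq2 0 members and 6 genes passed, 5 positive and 1 negative, and by limma voom 0 members. The median interaction over the members was 0.5 on the log2 scale, against -0.01 over all genes, and 38 of 45 were positive. Of the 5, Sgo1 (2.11, SE 0.97), Ncapg (2.01, SE 0.78), Cks2 (1.39, SE 0.52) and Aspm (1.3, SE 0.52) were positive, and Esco2 was negative (-2.35, SE 0.73). A larger response of the members in the knockout was therefore not shown by this test, with 2 sham libraries in each genotype.

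Single hearts differed in the median level of the members, though not in the same order at every member. Wild type TAC replicate 7, the lowest TAC library by the ratio below, was the highest of its group for Cks2 (2.97 CPM). Each library was given a median ratio over the members to the mean of wild type TAC replicates 2, 3, 4, 6 and 7. It was 0.333 and 0.296 in wild type sham and 0.342 and 0.444 in knockout sham. In wild type TAC it was 0.677 in replicate 7, 0.824 in replicate 2, 0.961 in replicate 3, 1.14 in replicate 4 and 1.35 in replicate 6, and 1.35 in the library labelled replicate 1. In knockout TAC it was 1.23 in replicate 4, 1.67 in replicate 1, 2.05 in replicate 5 and 2.7 in replicate 2. The lowest knockout TAC heart thus lay below the highest wild type ones. Knockout TAC replicate 2 was the highest of all 14 libraries at 40 members, and replicate 4 the lowest knockout TAC library at 38. Wild type TAC replicate 7 was the lowest TAC library at 32 members and replicate 2 at 11. The library labelled replicate 1 of wild type TAC was the highest of its group at 23 members, lay within the knockout TAC range at 32 and below it at 13.

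**Figure D5:**
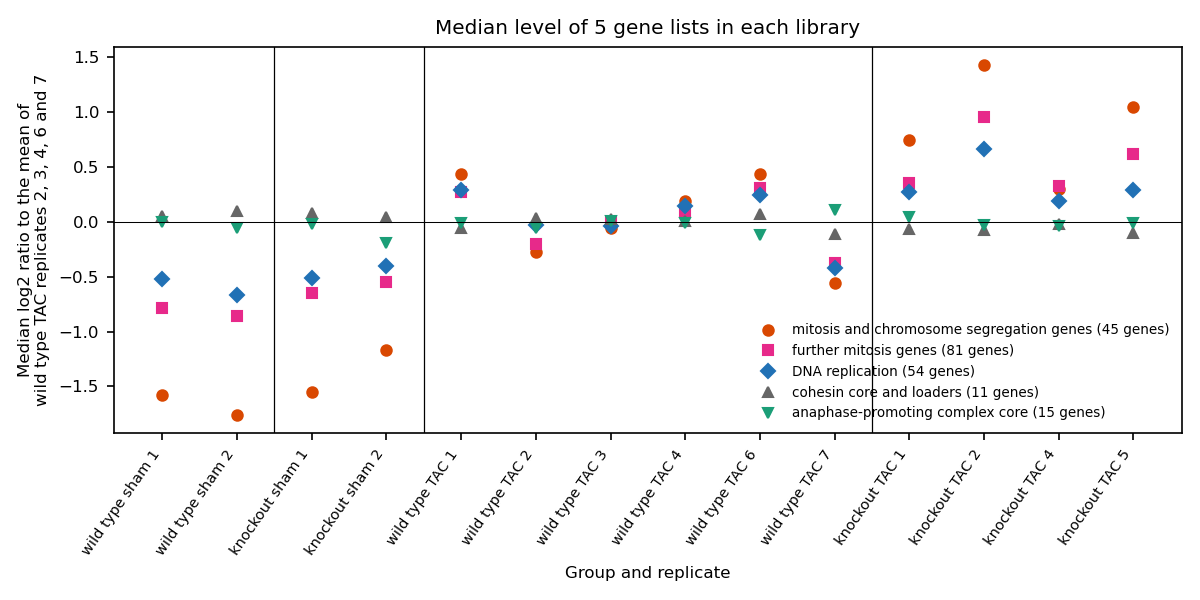
For each library (horizontal axis), the median over a gene list of the log2 ratio to the mean of wild type TAC replicates 2, 3, 4, 6 and 7 (vertical axis); marks are the 5 lists in the legend. The mitosis genes run from -1.76 to 1.43, the DNA replication genes over a smaller range in the same libraries, and the cohesin and anaphase-promoting complex cores stay near 0.

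Genes of mitosis outside the set gave calls in the same direction and fewer of them. Of 81 further mitosis genes, 67 had a positive log2 fold change and 24 rose after TAC in wild type (median log2 0.98) and in the knockout 76 were positive and 35 rose (median 1.21), and 0 fell in either. Over all genes 6.36% rose in wild type and 2.36% in the knockout. Examples are Ckap2, a spindle microtubule protein, with 2.01 (SE 0.4, adjusted p = 0.011) in wild type and 2.83 (SE 0.41, adjusted p = 0.003) in the knockout, and Cdca8, the borealin of the passenger complex, with 2.2 (SE 0.44, adjusted p = 0.012) in wild type. Between the genotypes after TAC, 76 of the 81 differences were positive, 19 were higher and 0 lower (median 0.57), where 3.71% of all genes were higher. Pttg1, the securin that holds separase, was among the 19 at 0.67 (SE 0.16, adjusted p = 0.02), and so was Spc24, the partner of Spc25, at 0.77 (SE 0.16, adjusted p = 0.013). Without the library labelled replicate 1 of wild type TAC 37 were higher, where 8.5% of all genes were.

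Genes of DNA replication had smaller median changes. Of 54, 20 rose after TAC in wild type (median 0.69) and 21 in the knockout (median 0.84), and 0 fell. Over all genes 6.36% and 2.36% rose. Pclaf, a PCNA-binding factor, gave 3.64 (SE 0.63, adjusted p = 0.0068) in wild type and 2.81 (SE 0.53, adjusted p = 0.0099) in the knockout, and Mcm10, a factor of origin firing, 3.0 (SE 0.52, adjusted p = 0.006) in the knockout. In the knockout after TAC, 4 were higher than in wild type and 0 lower, with a median of 0.31, where 3.71% of all genes were higher. Without the library labelled replicate 1 of wild type TAC 13 were higher, where 8.5% of all genes were. The 4 were Pcna, the sliding clamp, at 0.31 (SE 0.07, adjusted p = 0.021), Gmnn, the licensing inhibitor, at 0.4 (SE 0.11, adjusted p = 0.038), E2f2, a transcription factor of S phase genes, at 0.88 (SE 0.25, adjusted p = 0.039) and Cdc6, a licensing factor, at 0.85 (SE 0.25, adjusted p = 0.044). By library, the median ratio of the replication genes was 0.627 to 0.76 in sham hearts, 0.748 to 1.22 in wild type TAC and 1.14 to 1.58 in knockout TAC. Whether the 2 lists differ in response was not tested.

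Other lists held subunits of the same machines that cells hold throughout the cycle, and genes of mitotic exit. After TAC, 6.36% of all genes rose and 5.8% fell in wild type, and 2.36% rose and 1.73% fell in the knockout. Between the genotypes after TAC, 3.71% of all genes were higher in the knockout and 5.63% lower. Of 11 cohesin core and loader genes, Smc1a rose (0.29, SE 0.08, adjusted p = 0.031) and Mau2 fell (-0.34, SE 0.1, adjusted p = 0.042) after TAC in wild type, 0 passed in the knockout, and Stag2 was lower in the knockout after TAC (-0.22, SE 0.07, adjusted p = 0.049). Of 15 core genes of the anaphase-promoting complex, Anapc15 rose in wild type (0.51, SE 0.15, adjusted p = 0.044), and 0 passed in the knockout or between the genotypes after TAC. Of 14 genes of mitotic exit phosphatases and of inhibitors of Cdk1, Mastl, the kinase that restrains PP2A in mitosis, rose in wild type (2.09, SE 0.51, adjusted p = 0.02) and in the knockout (2.16, SE 0.5, adjusted p = 0.025). Cdc14b, a phosphatase, fell in both (-0.74, SE 0.09, adjusted p = 0.0013, and -0.56, SE 0.1, adjusted p = 0.0071). Wee1, the kinase that holds Cdk1 inactive, was lower in the knockout after TAC (-0.91, SE 0.15, adjusted p = 0.0028), and so was Cdc14b (-0.26, SE 0.08, adjusted p = 0.045).

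Some markers of the cell types of the heart also differed between the groups, not all in the direction of the members. Their part in the members' changes was not tested. In wild type, 10 of 10 macrophage and 7 of 10 fibroblast markers rose after TAC, where 6.36% of all genes rose. In the knockout 0 of 10 of either passed by edgeR, where 2.36% of all genes rose and 1.73% fell. There, 6 fibroblast and 5 macrophage markers had an unadjusted p under 0.05. By edgeR 0 of all genes passed the interaction, so these counts do not show a difference in response. Between the genotypes after TAC, 5 of 10 fibroblast and 5 of 10 macrophage markers were lower in the knockout and 0 higher, or 10 and 9 lower without the library labelled replicate 1 of wild type TAC. Their sums were 6230 to 12000 CPM (fibroblast) and 592 to 1140 CPM (macrophage) in wild type TAC, both minima being that library and the others starting at 7200 and 740 CPM, and 4510 to 6160 and 511 to 691 CPM in knockout TAC. The fibroblast and macrophage markers called were lower in knockout TAC, where the mitosis genes were higher. Egfl7, Cldn5 and Tnni3, given below, were called higher there. Whether these levels are linked to those of the members was not tested. Within wild type TAC, replicate 7 had the highest fibroblast (12000 CPM) and macrophage (1140 CPM) sums and the lowest ratio of the members. Other libraries did not follow that order. Wild type TAC replicate 2, with low sums of 7200 and 740 CPM, had the next lowest ratio (0.824). Within knockout TAC, replicate 4 had the lowest sums (4510 and 511 CPM) and the lowest ratio (1.23). Knockout TAC replicate 2 had the highest macrophage sum (691 CPM) and the highest ratio (2.7). Of 10 endothelial markers, Egfl7 (0.69, SE 0.17, adjusted p = 0.024) and Cldn5 (0.88, SE 0.24, adjusted p = 0.042) were higher in the knockout after TAC, with sums of 981 to 1520 CPM in wild type TAC, or 981 to 1310 without the library labelled replicate 1 of wild type TAC, and 1280 to 1590 CPM in knockout TAC. The 7 erythroid markers summed to 174 to 272 CPM in wild type TAC and to 233, 914, 484 and 291 CPM in knockout TAC replicates 1, 2, 4 and 5. Replicate 2, the library with the highest members, also had the highest erythroid sum. Replicate 4 had the next highest erythroid sum and the lowest ratio of the members in knockout TAC (1.23). Of the 5 erythroid markers tested, 0 passed by edgeR and all 5 had an unadjusted p under 0.05, with a median log2 difference of 1.06. The 8 neutrophil markers summed to 9.69 to 47.7 CPM in wild type TAC and 13.4 to 20.6 CPM in knockout TAC, and the 10 T and B lymphocyte markers to 10.8 to 22.5 and 16 to 19.9 CPM, with 0 called in either list. Of 10 cardiomyocyte markers Tnni3 was higher in the knockout after TAC (0.49, SE 0.15, adjusted p = 0.046), and of 10 pericyte and smooth muscle markers 0 passed, with 3 at an unadjusted p under 0.05. Without the library labelled replicate 1 of wild type TAC, 4 cardiomyocyte markers and 1 pericyte and smooth muscle marker were higher, where 8.5% of all genes were. After TAC, the cardiomyocyte markers Pln (-0.51, SE 0.13, adjusted p = 0.023) and Ryr2 (-0.5, SE 0.15, adjusted p = 0.041) fell in wild type and Pln fell in the knockout (-0.52, SE 0.14, adjusted p = 0.048). The pericyte marker Cspg4 rose in wild type (0.51, SE 0.15, adjusted p = 0.039) and in the knockout (0.7, SE 0.16, adjusted p = 0.024).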

How the data were processed

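Raw read counts per gene, as deposited by the authors in 1 table, were used for 14 libraries of polyadenylated RNA from ventricular tissue. Per the submitters' processing notes, FastQC, HISAT2 2.1.0, featureCounts and edgeR were used with GRCm38. For the role of each, the strand setting and the annotation release: not given in the sources used here. Gene coordinates, exon lengths and shared exon bases were read from GENCODE M21 on GRCm38, and promoters from RefSeq on GRCm38.p6.

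Counts were filtered with filterByExpr by group, scaled with TMM factors and fitted in edgeR 4.0.16 (R 4.3.3) with 1 mean per group over all 14 libraries, which then share 1 estimate of the spread. The 5 contrasts were tested with the robust quasi-likelihood F test, and p-values were adjusted by Benjamini-Hochberg over 15876 genes, with a threshold of 0.05. The SE is the log2 fold change divided by the square root of F. Pooled ratios carry exact 95% intervals, and the limit of a count of 0 is 3 counts, both for counting error only. The library ratio adds 0.1 CPM to each value. The procedure was tested on simulated data with known changes. The simulation gave every gene the same spread, so it does not measure how reliable the calls of the members are.

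Alternatives were RLE scaling, no filter, the mitochondrially encoded genes left out, DESeq2 1.42.0, limma voom 3.58.1, only the groups compared, a replicate block and each library left out. Named are every member, Ccl24 and up to 4 genes with the smallest p past the threshold of each further list in each comparison. The members and lists were chosen with earlier results of these data known. Counts of libraries of 1 group differed by more than sampling noise in every pair, so none was counted as a duplicate.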

Additional observations from a re-analysis of the deposited data

Results flagged for a closer look

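In 4 of 90 groups of member levels, 1 library lay far from the others by Dixon's 95% criterion, which chance alone meets in about 1 of 20 groups. Cks2 in wild type TAC replicate 2 was the lowest of 6, at 1.62 CPM, with 0.79 of the group's range as its gap. Ska1 in knockout TAC replicate 4 was the lowest of 4, at 0.53 CPM, with a gap of 0.87 of the range. Sgo1 in the library labelled replicate 1 of wild type TAC was the highest of 6, at 1.43 CPM, with a gap of 0.66. Dlgap5 in wild type TAC replicate 6 was the highest of 6, at 3.02 CPM, with a gap of 0.76.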

How the results depend on the processing

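No value of a member changed its direction, as far as it was called, in any alternative. Of the members' values under the alternatives, 2352 kept their side of the threshold, 426 lost it and 57 gained it. For TAC in wild type (1009 genes higher, 921 lower and 38 members higher in the fit reported), limma voom gave 16 members, and only the groups compared gave 341 genes higher and 395 lower. For TAC in the knockout (374 higher, 274 lower), DESeq2 gave 796 and 546, only the groups compared 867 and 591, and limma voom 244 higher. For genotype after TAC (589 higher, 894 lower, 24 members), DESeq2 gave 1062 higher, and only the groups compared gave 294, 489 and 14 members. For genotype after sham (6 higher, 14 lower, 0 members), RLE scaling gave 22 lower, no filter 36 lower, DESeq2 39 higher and 108 lower, and only the groups compared 501, 657 and 1 member. For the interaction (0 and 0), no filter gave 3 higher, and DESeq2 5 higher and 1 lower. The fit with only the groups compared gives no value for the interaction. The causes of these differences were not tested.

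Leaving out 1 library at a time gave, for TAC in wild type, 0 to 1469 genes higher, 0 to 1308 lower and 0 to 41 members. In the knockout the ranges were 1 to 763, 0 to 598 and 0 to 44 members. For genotype after TAC they were 79 to 1350, 223 to 1589 and 1 to 34 members, and after sham 1 to 19, 2 to 60 and 0 to 1 member. For the interaction they were 0 to 2, 0 to 1 and 0 members. A sham group left with 1 library is assumed to vary like the other groups.

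Whether replicate numbers pair the libraries was not settled. The correlations of same-numbered deviations ran from -0.22 to 0.06, and not every library correlated best with its own number. In a sham group of 2 libraries, however, the deviations from the group mean mirror each other, so few separate pairs remain to judge by. A replicate block gave 11 genes higher, 11 lower and 5 members for TAC in wild type, 258 higher, 109 lower and 38 members in the knockout, 18 higher, 27 lower and 0 members for genotype after TAC, and 8 lower after sham. In sham hearts 3 counts stood for up to 0.154 CPM, which limits the folds of Esco2, Sgo1, Dlgap5 and Cep55.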
